A study of Homo sapiens with 9 samples.

Results

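The 3 libraries described here came from KYSE180 cells carrying a control short hairpin RNA against luciferase (shluc) and exposed to 6 Gy of ionizing radiation (IR). KYSE180 is an established human line labelled as esophageal squamous cell carcinoma, and the title of the series calls the cells KDM6A-deficient, although the genotype label of the shluc libraries reads WT. They are all the libraries labelled shluc, 3 of the 9 in the series, and the other 6, with hairpins against EZH2, were not used. All 9 libraries share the line, which the title calls KDM6A-deficient, and the 6 Gy, and no unirradiated sample was analysed here, so the profile below is that of irradiated cells. The time between irradiation and harvest is not given in the labels. No label says that replicates 1, 2 and 3 were separate cultures, so every spread below is one between these libraries and may be technical. The question is what the cells into which the EZH2 hairpins were brought express: their most abundant RNAs, their lineage markers, the gene classes they leave silent, and how far replicate libraries differ.

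Stratified squamous epithelium of the esophagus is renewed from a basal layer. Basal cells make the keratin pair KRT5 and KRT14 under the transcription factor p63 (encoded by TP63), and cells moving upward switch to KRT4 and KRT13 and then to the proteins of the cornified envelope. KRT8 and KRT18 form the keratin pair of simple epithelia, and carcinoma cells may take it up while losing the squamous one. Vimentin is the intermediate filament of mesenchymal cells, FOLR1 a folate receptor anchored to the cell surface, and H19 an imprinted long noncoding RNA that also serves as the precursor of a microRNA. KDM6A removes, and EZH2 as the catalytic subunit of Polycomb repressive complex 2 adds, a repressive methyl mark on histone H3.

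H19 was among the most abundant RNAs of these cells, and the microRNA embedded in it is therefore shown with its seeds. H19 lies at chr11:1995176-2001470 on the minus strand (GRCh38, GENCODE 29), and its microRNA arms lie within that interval, miR-675-5p at chr11:1996800-1996822 and miR-675-3p at chr11:1996768-1996787 (RefSeq, GRCh38.p14, minus strand). In the mature sequences, written 5′ to 3′, capitals mark the seed, bases 2 to 8.
hsa-miR-675-5p: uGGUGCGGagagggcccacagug
hsa-miR-675-3p: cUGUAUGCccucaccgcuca
The 2 seeds differ, and these libraries of polyadenylated RNA measure the H19 transcript, not the mature microRNAs.

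Levels are given on 2 scales. Counts scaled to a library total of 1000000 (CPM) serve to compare libraries. Values scaled in the same way after division by the gene's exon length (TPM), here the union of its GENCODE 29 exons, serve to compare genes. Errors written ± are standard deviations over the 3 libraries (SD, n = 3). The library totals were 19508444, 18923610 and 18563879 estimated counts for replicates 1, 2 and 3, so that 1 count was worth 0.0513 to 0.0539 CPM. A gene with no count may have up to 3 counts' worth, 0.154 to 0.162 CPM, and this limit covers counting error only.

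Replicate 2 stood apart from the other 2 libraries. Among the 7071 genes of at least 10 CPM and detected as defined below, replicate 2 was the highest library in 51.9% and the lowest in 31.5%. Spearman's rho across the 11461 detected genes was 0.989 between replicates 1 and 3, 0.985 between 1 and 2, and 0.978 between 2 and 3. Genes are not independent replicates, and these coefficients describe the libraries only. Levels without replicate 2 are given where they lower a value by more than 1.5 times. The mean of 2 libraries cannot rise past 1.5 times the mean of 3.

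A gene was called detected at 1 CPM or more in all 3 libraries, which corresponds to about 19 counts. Of the 57905 identifiers 19.8% were detected, 11461 in number, 37992 (65.6%) were at 0 in all 3, and 8452 lay between. Among the 19263 protein-coding genes 10691 were detected (55.5%), 4483 were at 0 in all 3 (23.3%), and the median level was 2.78 CPM. These shares are the background for each list below. Only 99 protein-coding genes exceeded 1000 CPM, 1758 lay between 100 and 1000, 5033 between 10 and 100, and 4191 between 1 and 10. Few other transcripts reached detection: 121 of 6576 genes annotated as lincRNA and none of 1178 annotated as miRNA or 866 as snoRNA. The libraries were made from polyadenylated RNA.

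The leading transcripts were those of mitochondrial, iron storage, cytoskeletal and glycolytic genes, with FOLR1 among them. Per length, the cytochrome oxidase subunit gene MT-CO1 was highest (24484 ± 5414 TPM), with the heavy chain of ferritin, FTH1, at 22197 ± 754 TPM and MT-CO2 at 20469 ± 1844 TPM. FOLR1 ranked 5 of all genes with a known length on this scale, at 11894 ± 1815 TPM. It ranked 6 with the longest transcript in place of the exon union. ACTB, cytoplasmic beta-actin, stood at 9214 ± 1059.5 TPM, and the glycolytic enzyme GAPDH at 8296 ± 65.7 TPM. The light chain of ferritin, FTL, came at 6839 ± 343 TPM, the actin-binding peptide gene TMSB10 at 6725 ± 1641 TPM, and the glycolytic enzyme ALDOA at 5923 ± 257 TPM. FTH1, ACTB and GAPDH have many processed pseudogenes, and the treatment of reads shared with such copies is not stated in the sources used here. RPL41P1, a short processed pseudogene of a ribosomal protein gene, stood at 8997 ± 3548 TPM and is uncertain for the same reason.

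Genes of narrower known expression, namely FOLR1, H19, ALPP and ALPG, stood among these housekeeping transcripts. FOLR1 (ENSG00000110195, chr11:72189558-72196323 on the plus strand) was at 5321, 4763 and 6875 CPM in replicates 1, 2 and 3. Replicate 3 was the highest and replicate 2 the lowest, a ratio of 1.44. H19 (ENSG00000130600) was at 3799.6, 3739.6 and 3642 CPM, a coefficient of variation (CV, the SD as a percentage of the mean) of 2.14%, and ranked 23 by TPM (4485 ± 266 TPM). The 3 libraries were nearly level for H19. ALPP and ALPG, the placental and germ cell alkaline phosphatases, stood at 3369 ± 483 CPM and 3113 ± 366 CPM. They are near-identical neighbours, so the split between them is uncertain. Other abundant genes were BSG, a cell surface glycoprotein that partners lactate transporters, at 3467 ± 87.9 CPM, and SLC7A5 at 2678 ± 246 CPM. SLC7A5, the large neutral amino acid transporter, had the highest level among 335 solute carrier genes.

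**Figure D1:**
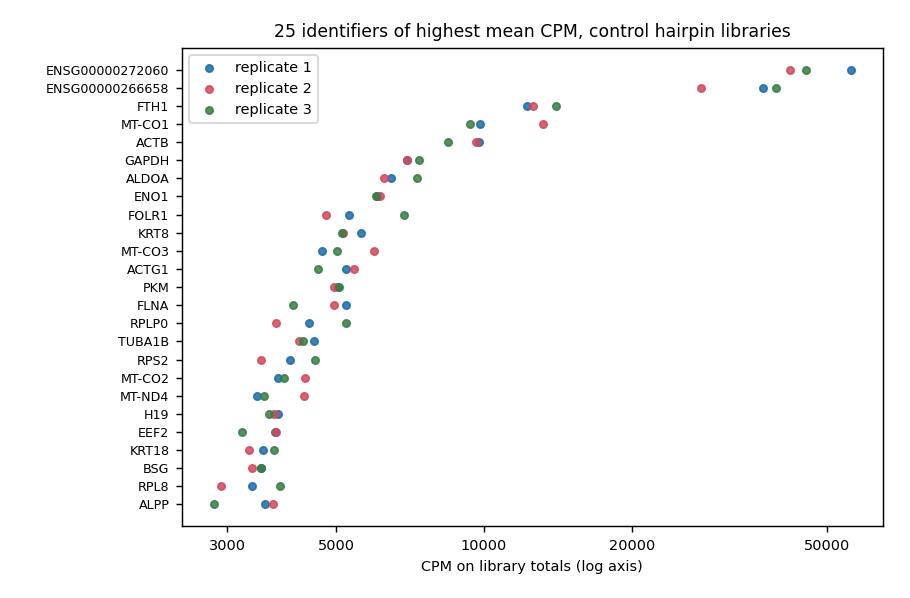
Level of the 25 identifiers of highest mean CPM, 1 row each, with CPM on library totals on a log axis and 1 point per replicate. ENSG00000272060 and ENSG00000266658 lie far to the right of all others, and FOLR1 is highest in replicate 3.

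The 2 identifiers at the top of the CPM order have no symbol in the tables used here. ENSG00000272060 held 4.77 ± 0.726% of all counts and ENSG00000266658 held 3.46 ± 0.616%, and together they took 9.28, 6.96 and 8.45% of replicates 1, 2 and 3. Replicate 2 was the lowest for both. Because they take counts from every other gene, leaving them out of the totals raises the CPM of the other genes 1.09-fold in the median. With them the 100 most abundant identifiers held 33.8 ± 1.32% of counts, and the 100 most abundant with a symbol 25.8 ± 0.519%.

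By class, the 28 listed glycolysis genes took 4.02 ± 0.0821% of counts, with 27 detected. ALDOA was at 6670.5 ± 557 CPM, ENO1 at 6074 ± 70.7 CPM and the triosephosphate isomerase gene TPI1 at 2522 ± 454 CPM. The 80 cytosolic ribosomal protein genes took 5.26, 4.67 and 6.68% in replicates 1, 2 and 3, with 78 detected, and the 13 mitochondrially encoded protein genes 3.19, 4.12 and 3.23%. Replicate 2 was thus lowest for ribosomal protein transcripts and highest for mitochondrial ones. All 23 translation factor genes and all 22 heat shock and ER chaperone genes were detected, led by EEF1G (3363 ± 276 TPM) and by the calcium-binding ER chaperone CALR (2784 ± 389 TPM). Of 21 listed targets of NRF2, the transcription factor of the oxidant response, 19 were detected, with PRDX1, a peroxidase, at 718 ± 177 CPM.

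Of 55 type I and II keratin genes 11 were detected, and 6 of them, KRT7, KRT8, KRT10, KRT17, KRT18 and KRT80, were at 10 CPM or more. KRT8 (ENSG00000170421, chr12:52897187-52949954 on the minus strand) was at 5625, 5159.7 and 5132 CPM, and its partner KRT18 (ENSG00000111057, chr12:52948871-52952901 on the plus strand) at 3552, 3327 and 3727 CPM. For neither did the libraries differ by more than 1.12-fold. The annotated intervals of the pair overlap on opposite strands, and the strand setting of the counting is not given in the sources used here. Per length the order of the pair depended on the length used: KRT8 was at 2689 ± 215 TPM and KRT18 at 3824 ± 123 TPM by exon union, and 4879 ± 414 TPM and 4661 ± 111 TPM by longest transcript. KRT7, another simple epithelial keratin, was at 1990.0 ± 171 CPM, KRT19 at 8.21 ± 2.92 CPM, and KRT20 was at or below 0.211 CPM in each library. Of the 5 simple keratins 4 were thus detected.

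Markers that define basal squamous cells were near the limit of detection. KRT5 was at 0.769, 0.634 and 0.539 CPM and KRT14 at 0.103, 0.106 and 0.0539 CPM, KRT6A averaged 0.124 ± 0.0833 CPM, and KRT6C was at 0 in all 3. KRT17, a keratin of basal and stressed squamous cells, was the exception at 1367, 1272 and 1467 CPM, and KRT16 and KRT15 were detected at 2.9 ± 0.467 CPM and 1.82 ± 0.232 CPM. In all, 3 of 8 basal squamous keratins were detected, against 55.5% of protein-coding genes. TP63 (chr3:189631416-189897279 on the plus strand) was at 0.564, 1.16 and 0.646 CPM, from 11, 22 and 12 estimated counts, and passed 1 CPM in replicate 2 alone. SOX2, a factor often amplified in squamous carcinoma, averaged 0.123 ± 0.0607 CPM. The defining markers TP63, KRT5 and KRT14, and SOX2, thus averaged below 1 CPM. Taken alone these 4 go against the squamous label, but they do not settle it, and they were named after their values were seen. Other members of the squamous lists were detected: KRT15, KRT16, KRT17, 9 of 17 squamous lineage factors, and all 13 attachment genes given later.

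Among 17 squamous lineage factors 9 were detected, 52.9% against 55.5% of protein-coding genes. The epithelial factor ELF3 was at 419.5, 405 and 353 CPM and PITX1 at 179, 137 and 182 CPM. KLF5, a basal progenitor factor, was at 43.3, 68.4 and 48.8 CPM, and TFAP2A at 45.1, 70.1 and 46.8 CPM. Replicate 2 was the highest library for KLF5 and TFAP2A and the lowest for PITX1. FOXE1 (22.6 ± 3.84 CPM), TFAP2C (16.7 ± 2.43 CPM), KLF4 (9.62 ± 2.34 CPM), EHF (4.71 ± 0.527 CPM) and PAX9 (2.1 ± 0.675 CPM) completed the detected factors. ZNF750, a factor of keratinocyte differentiation, averaged 0.0171 ± 0.0296 CPM, from a count in replicate 1 only.

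Upper-layer genes were mostly silent. Of 30 suprabasal and cornification genes 7 were detected and 11 were at 0 in all 3, among the latter IVL, CRNN, SPRR3, FLG and KRT1. KRT4 and KRT13, the suprabasal pair of the esophagus, averaged 0.508 ± 0.0688 CPM and 0.0532 ± 0.0528 CPM. Detected members included KRT80 (291 ± 35.3 CPM), the cross-linking enzyme TGM1 (44.9 ± 6.65 CPM), the extracellular matrix protein gene ECM1 (30.8 ± 5.25 CPM), and the plakin genes PPL and EVPL. PPL was at 189, 236 and 139.7 CPM, highest in replicate 2, and EVPL at 95.1, 88.7 and 79.3 CPM, highest in replicate 1.

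**Figure D2:**
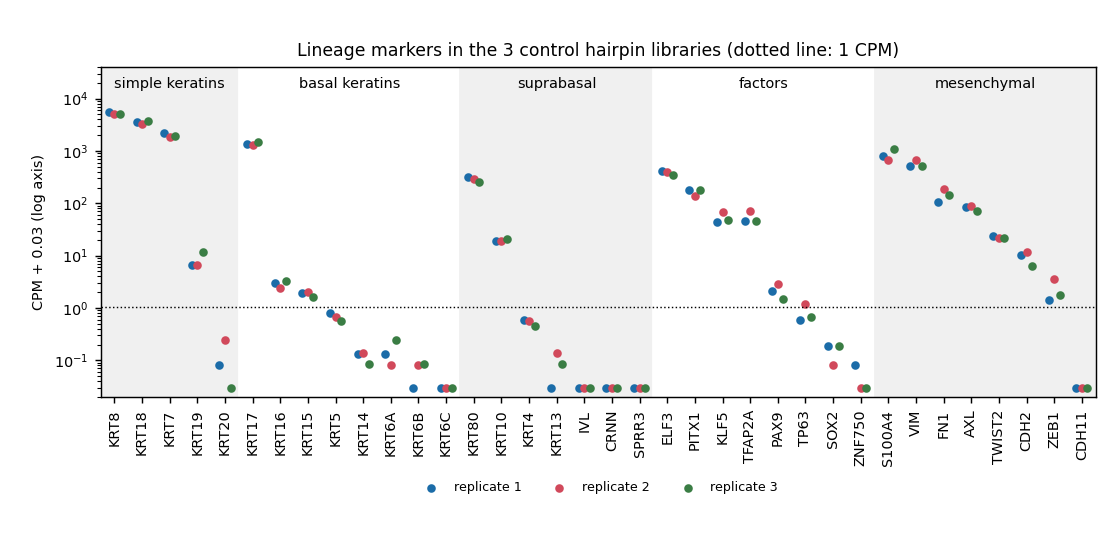
Level of lineage markers (CPM with 0.03 added, log axis) with 1 point per replicate and the 1 CPM detection line dotted. KRT8, KRT18, KRT7 and KRT17 lie above 1000 CPM, whereas KRT5, KRT14, SOX2 and the cornification genes IVL, CRNN and SPRR3 lie below 1 CPM.

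Attachment to the basement membrane was represented in full: all 13 listed genes were detected. PLEC, which ties keratins to hemidesmosomes, was at 1389 ± 144 CPM, the integrin genes ITGB4 and ITGA3 at 233 ± 13.7 CPM and 346 ± 20.02 CPM, and the laminin chain gene LAMB3 at 340.0 ± 43.3 CPM. COL17A1, a hemidesmosomal collagen gene, was at 3.18 ± 0.235 CPM. Desmosomes were represented by 7 of 14 genes, 50.0% against 55.5% of protein-coding genes. JUP, the plakoglobin gene, was at 779, 768 and 673 CPM, PKP3 at 362, 313 and 395 CPM, and DSP, which anchors keratin to the desmosome, at 82.5, 161 and 78.4 CPM. DSP was highest in replicate 2, with a ratio of 2.05 between the highest and the lowest library, whereas JUP varied by 1.16-fold. Of the desmosomal cadherins DSG2 was at 42.1 ± 14.4 CPM, DSG3 and DSC3 averaged 0.0877 ± 0.0303 CPM and 0.0703 ± 0.0307 CPM, and DSG1 and DSC1 were at 0.

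Epithelial and mesenchymal markers were both measured in these libraries. Of 21 epithelial junction genes 17 were detected, 81.0% against 55.5% of protein-coding genes. CDH1, encoding E-cadherin, was at 5.59, 7.08 and 5.82 CPM and EPCAM at 4.66, 4.54 and 4.09 CPM. Both lay below the median of detected protein-coding genes, 19.2 CPM, and above that of all protein-coding genes, 2.78 CPM. The catenin gene CTNNA1 was at 436 ± 109 CPM, the mucin gene MUC1 at 296 ± 22.6 CPM, and the tight junction genes CLDN4 and CLDN7 at 54.4 ± 2.03 CPM and 53.4 ± 5.81 CPM. Of the 19 listed mesenchymal and EMT genes 12 were detected, 63.2% against the background of 55.5%. VIM (ENSG00000026025, chr10:17228259-17237593 on the plus strand) was at 514, 669.6 and 522 CPM, with replicate 2 the highest and the other 2 close together. S100A4 was at 793, 663 and 1091 CPM, highest in replicate 3 and lowest in replicate 2. FN1, encoding fibronectin, was at 145 ± 42.7 CPM, the receptor kinase AXL at 81.6 ± 10.1 CPM, TWIST2 at 22.3 ± 0.929 CPM and CDH2, encoding N-cadherin, at 9.52 ± 2.8 CPM. CDH11 and PRRX1 were at 0 in all 3 libraries. Per length VIM (385 ± 68.4 TPM) stood below KRT8 and KRT18 with either length.

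Markers of other cell types were checked next. Over 8 lists of such markers 23 genes were detected, with shares per list of 0 to 41.7% against 55.5% of protein-coding genes. No hepatocyte gene of 15 was detected, and 10 of them, including ALB and APOA1, were at 0. Of 25 blood cell genes 3 were detected, including CD68 (22.1 ± 3.46 CPM) and CSF1R (2.94 ± 0.455 CPM), whereas PTPRC, CD3D, CD3E and MS4A1 were at 0. The summed level of the blood list was 30.1, 31.6 and 25.0 CPM. Of 11 endothelial genes CDH5 (20.8 ± 5.5 CPM) and ESAM (22.1 ± 1.1 CPM) were detected, and KDR, FLT1, TIE1 and ERG were at 0.

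Of 12 fibroblast genes 5 were detected, and COL5A1 gave most of their sum, at 1009, 1194 and 840.4 CPM. COL1A1 was at 54.8, 55.6 and 55.2 CPM, its partner chain COL1A2 was at 0 in all 3, and PDGFRA and COL6A3 were at 0 as well. DCN, LUM and PDGFRB were at 13.4 ± 1.42 CPM, 3.82 ± 0.909 CPM and 4.07 ± 1.14 CPM. Of 21 intestinal and gastric columnar genes 5 were detected: the gastric mucin gene MUC5AC (38.9, 42.8 and 35.01 CPM), the endodermal factors HNF4A (13.2, 12.3 and 11.1 CPM) and GATA6 (6.09 ± 1.63 CPM), MUC2 (2.5 ± 0.405 CPM) and VIL1 (1.8 ± 0.38 CPM). MUC5AC and HNF4A varied by less than the median gene of their level. Neuronal and glial genes gave 4 of 19, with TUBB3 at 72.5 ± 6.34 CPM, NEFH at 12.7 ± 3.68 CPM, GAD1 at 7.82 ± 0.917 CPM and MBP at 2.78 ± 0.671 CPM. Muscle genes gave RYR1 (15.9 ± 1.7 CPM) and DES (2.37 ± 0.127 CPM) of 15, and melanocyte genes MITF (13.6 ± 4.2 CPM) and PMEL (3.7 ± 0.318 CPM) of 7. In bulk RNA a low level may come from few cells or from little RNA in each, which cannot be told apart.

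Germline genes of the kind often switched on in carcinoma were active in a small set. Of 34 cancer and testis antigens 7 were detected and 16 were at 0. MAGEA6 was at 60.8, 86.7 and 59.3 CPM, MAGEA3 at 30.4, 36.5 and 31.01 CPM and MAGEA1 at 23.99, 36.4 and 26.3 CPM, each highest in replicate 2. MAGEA3 and MAGEA6 are close copies, so their split is uncertain. PRAME was at 24.01 ± 3.68 CPM, CT83 at 6.19 ± 1.18 CPM, PAGE1 at 4.58 ± 1.03 CPM and CTAG2 at 3.69 ± 0.788 CPM.

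Large families with restricted expression were silent. Not one of 350 olfactory receptor genes was detected, and 340 were at 0 in all 3. The same held for 24 bitter taste receptor genes (23 at 0), 92 keratin-associated protein genes (87 at 0), 45 defensin genes (44 at 0) and 21 interferon ligand genes (19 at 0). All 181 immunoglobulin segment genes and all 162 T cell receptor segment genes were at 0, against 23.3% of protein-coding genes. The whole olfactory family summed to 1.18 CPM.

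Other families were partly silent. Among 10 globin genes the embryonic HBE1 alone was detected, at 5.13, 3.91 and 3.93 CPM. Of 55 cytochrome P450 genes 8 were detected, including the sterol demethylase CYP51A1 (35.9 ± 9.09 CPM), the steroidogenic CYP11A1 (31.4, 31.7 and 33.4 CPM), CYP2S1 (25.6 ± 1.93 CPM) and CYP1A1 (18.7 ± 3.14 CPM). CYP11A1 was nearly level over the libraries. Potassium channels gave 16 of 94, led by KCNK15 at 135 ± 14.6 CPM, and clustered protocadherins 3 of 51. By contrast 223 of 469 ZNF genes and 166 of 335 solute carrier genes were detected, shares of 47.5% and 49.6% that lie near the background of 55.5%.

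**Figure D3:**
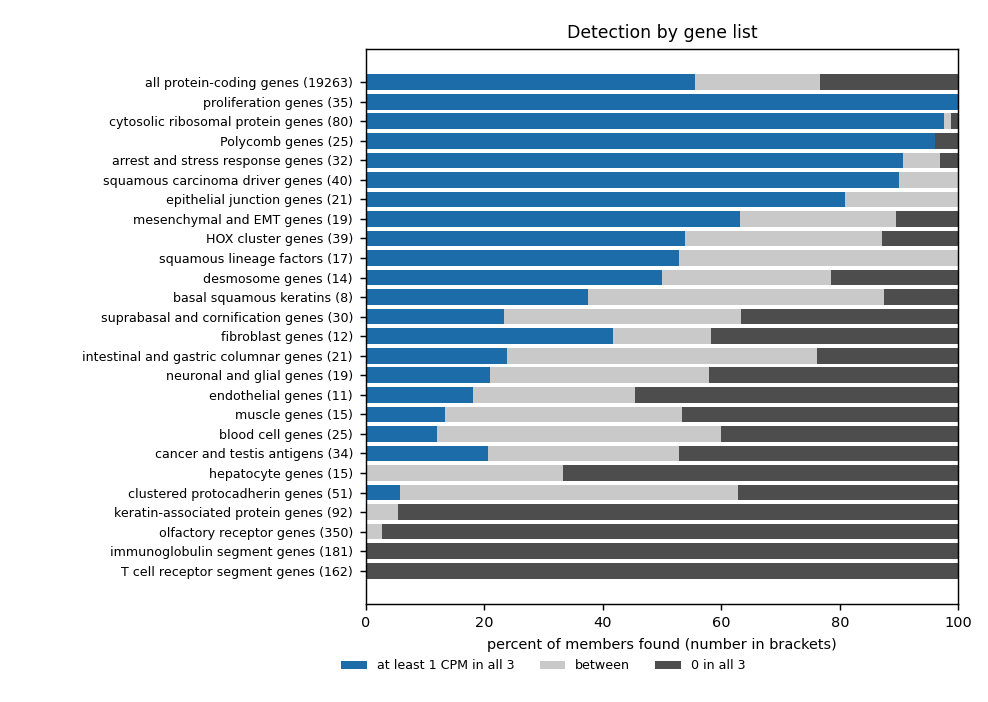
Share of the members of each gene list at 1 CPM or more in all 3 libraries, between, and at 0 in all 3, in percent of members found, with all protein-coding genes in the top bar. Proliferation genes are detected in full, whereas olfactory receptor, immunoglobulin and T cell receptor genes have no detected member.

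HOX genes, which record position along the body axis and are classical Polycomb targets, were detected at 21 of 39, a share of 53.8% near the background. The clusters differed: 8 of 11 HOXA, 7 of 10 HOXB and 6 of 9 HOXC genes were detected, but 0 of 9 HOXD genes, of which 4 were at 0. Summed levels were 88.6 ± 14.4 CPM for HOXA, 102 ± 6.75 for HOXB, 219 ± 25.8 for HOXC and 0.441 ± 0.218 for HOXD. Posterior genes held most of the sum, 324 CPM in paralogue groups 10 to 13 against 69.0 in groups 6 to 9 and 16.8 in groups 1 to 5. HOXC10 was at 109, 123 and 105 CPM, HOXB13 (chr17:48724763-48729178 on the minus strand) at 70.2, 65.4 and 63.1 CPM, HOXC13 at 52.8, 64.2 and 43.5 CPM and HOXA11 at 42.99, 52.7 and 35.9 CPM. HOXB13 was lowest in replicate 3 and highest in replicate 1, and the other 3 were highest in replicate 2. HOXC11 (28.3 ± 4.13 CPM), HOXA7 (14.7 ± 2.01 CPM), HOXB7 (9.01 ± 0.747 CPM) and HOXC9 (9.49 ± 0.976 CPM) followed per length.

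**Figure D4:**
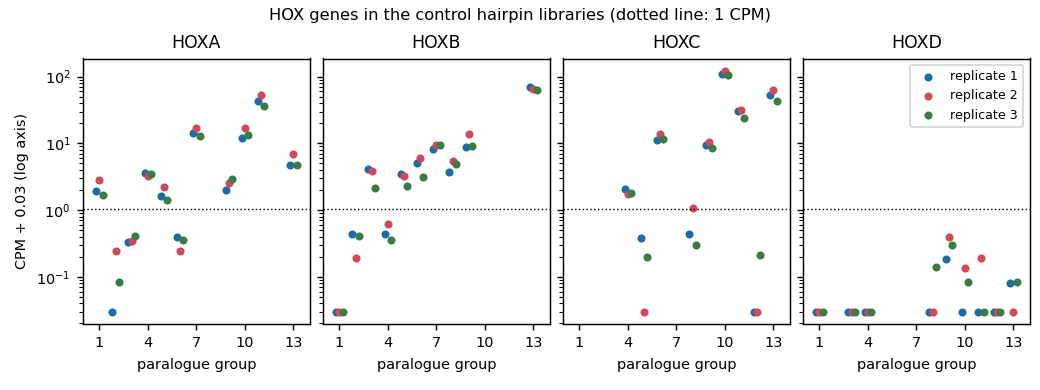
Level of each HOX gene (CPM with 0.03 added, log axis) by paralogue group in the 4 clusters, with 1 point per replicate and the 1 CPM line dotted. HOXC10 and HOXB13 stand highest in their clusters, and every HOXD gene lies below 1 CPM.

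Polycomb genes were almost all expressed, 24 of 25. EZH2 was at 20.5, 26.7 and 21.9 CPM, from 399, 505 and 407 estimated counts, highest in replicate 2. Members high per length included the PRC1 genes RING1 (114 ± 9.3 CPM) and PHC2 (127 ± 6.99 CPM), and PHF19 (139.5 ± 2.65 CPM), an accessory protein of PRC2. KDM6A, named as deficient in the title, was at 3.998, 6.29 and 3.66 CPM, from 78, 119 and 68 estimated counts. Transcripts of KDM6A were thus counted in every library, and since the labels do not say which lesion the line carries, its RNA level does not check that label.

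Imprinted genes, expressed from a single parental allele, were mixed. Of 31 imprinted genes 18 were detected and 6 were at 0. Those shares, 58.1% and 19.4%, lie near the 55.5% and 23.3% of protein-coding genes. H19 was the highest, while its neighbour IGF2, with which it shares an enhancer region, averaged 0.174 ± 0.128 CPM. PHLDA2, a growth-restraining gene of placenta, was at 172 ± 25.3 CPM, GNAS, encoding a G protein subunit, at 749 ± 114 CPM, and SNURF at 94.6 ± 15.1 CPM. MEG3, DLK1, RTL1 and PEG3 were at 0 in all 3 libraries. Folate genes were detected at 19 of 22. Beside FOLR1, the mitochondrial serine enzyme SHMT2 was at 456 ± 23.4 CPM, FPGS, which traps folate in the cell by adding glutamates, at 265 ± 34.8 CPM, and TYMS, the thymidylate synthase gene, at 201 ± 35.5 CPM.

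Genes of the radiation response were widely expressed, with no unirradiated cells to set them against. Of 32 genes of the damage-induced arrest and stress response 29 were detected. CDKN1A, encoding the p21 cell cycle inhibitor, was at 165, 159 and 170.2 CPM, nearly level over the libraries. PHLDA3 was at 114 ± 21.4 CPM, the damage-binding gene DDB2 at 103 ± 8.12 CPM and the secreted factor gene GDF15 at 49.9 ± 2.68 CPM. H2AX, the histone variant phosphorylated at DNA breaks, was at 158, 132 and 192 CPM, highest in replicate 3. Of 31 DNA damage repair genes 27 were detected. XRCC6, the Ku70 gene of end joining, was at 679.7 ± 69.1 CPM, the poly(ADP-ribose) polymerase gene PARP1 at 261 ± 73.04 CPM and the single-strand binding gene RPA2 at 94.7 ± 7.29 CPM.

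Cell cycle transcripts were abundant in the same libraries. All 35 proliferation genes were detected, 34 of them at 10 CPM or more. The list median was 87.8 CPM, against 19.2 over detected protein-coding genes and 2.78 over all protein-coding genes. MYBL2, a cell cycle transcription factor, was at 625 ± 55.99 CPM, the mitotic genes UBE2C and CDC20 at 275 ± 38.7 CPM and 385 ± 26.6 CPM, and the thymidine kinase gene TK1 at 351 ± 34.3 CPM. Among 40 squamous carcinoma driver genes 36 were detected, led per length by CDK4 (427 ± 54.7 CPM) and by CDKN2A, a cell cycle inhibitor gene (238, 207 and 269 CPM). Of 31 senescence and secreted factor genes 19 were detected, 61.3% against 55.5% of protein-coding genes. Among them IGFBP3 was at 217 ± 50.4 CPM and IGFBP7 at 116 ± 9.92 CPM.

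Immune and early response genes completed the profile. Of 31 MHC and immune checkpoint genes 18 were detected, 58.1% against 55.5% of protein-coding genes. The class I genes HLA-C and HLA-B were at 357 ± 27.5 CPM and 336 ± 13.5 CPM, with B2M, the light chain of class I, at 621 ± 168 CPM. HLA genes resemble each other, so the split between them is uncertain. Of 21 immediate early genes 19 were detected, led per length by JUNB (244 ± 12.9 CPM), IER3 (151 ± 8.07 CPM) and DUSP1 (219 ± 23.4 CPM).

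Replicate spread was larger than counting error. The median CV was 15.1% over the 7071 genes, against 3.44% for counting alone, and 84.6% of them exceeded the counting CV by more than 2 times. It fell with level, from 23.2% at 1 to 10 CPM to 16.4% at 10 to 100, 12.1% at 100 to 1000 and 11.02% above. The common biological coefficient of variation from edgeR, which removes counting error, was 0.185 over 11467 genes. Without replicate 2 it was 0.132, and the median CV was 8.97%. No pair of libraries was a copy. Chi-square per degree of freedom, over identifiers counted in either library, was 17.4 for the closest pair, replicates 1 and 3. It would be near 1 for repeated counting of 1 library.

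Library differences varied with transcript length and GC content, though not in the same way for each pair. Across 6993 genes of at least 10 CPM with a known longest transcript, the log2 difference of replicate 3 minus replicate 2 had a Spearman's rho of -0.67 with transcript length and 0.49 with GC content. For replicate 2 minus replicate 1 the rho was 0.50 with length and -0.72 with GC content. For replicate 3 minus replicate 1 it was -0.51 with length and only -0.14 with GC content. For the pair of replicates 3 and 2, within 3 equal bins of GC content the rho with length lay between -0.70 and -0.61, and within 3 equal bins of length the rho with GC content lay between 0.36 and 0.50. In the shortest of 10 equal bins by transcript length, with a median of 1038 bases, replicate 2 lay 0.23 below and replicate 3 lay 0.25 above the mean of the 3 libraries on the log2 scale (bin medians of -0.23 and 0.25). In the longest bin, with a median of 8841.5 bases, the medians were 0.41 for replicate 2 and -0.29 for replicate 3. What sets these trends was not tested.

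**Figure D5:**
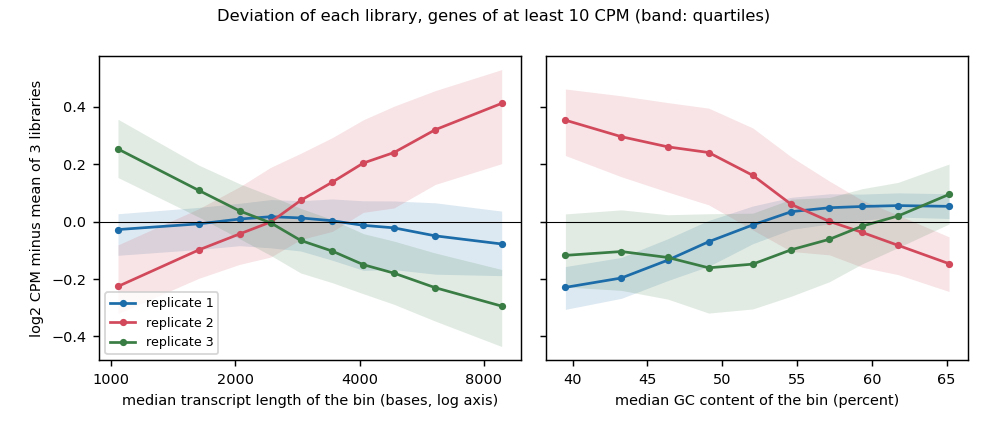
Median deviation of each library from the mean of the 3 (log2 CPM) in 10 equal bins of genes by transcript length (left, bases, log axis) and GC content (right, percent), with bands for the quartiles over genes. Replicate 2 rises from -0.23 to 0.41 with length while replicate 3 falls from 0.25 to -0.29.

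The same split showed in some gene groups. Of the 77 ribosomal protein genes at 10 CPM or more, which have short transcripts, 74 were highest in replicate 3, against 28.9% of all genes of that level, and 53 were lowest in replicate 2, against 31.5%. At the other end stood long genes. At 100 CPM or more, the giant ubiquitin ligase gene RNF213 (131, 192 and 79.4 CPM), the end-joining kinase gene PRKDC (191, 350.0 and 145 CPM) and AHNAK (564, 1029 and 428 CPM) were highest in replicate 2 and lowest in replicate 3. UQCRQ, a short respiratory chain gene (131, 89.7 and 223 CPM), and RPL41P1 (189, 133 and 313 CPM) showed the opposite order. Their ratios of highest to lowest library, 2.36 to 2.49, were the 5 largest at that level. The 13 mitochondrially encoded protein genes did not share the order of the ribosomal protein genes. Of them 8 were highest in replicate 2, against 51.9% of all genes of that level, and 3 in replicate 3, against 28.9%. Both counts lie near the shares over all genes.

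The largest CVs at 10 CPM or more fell into 2 kinds. The first kind was 7 genes, MYCBP2, BBX, HIVEP1, HEATR5A, SMG1P3, NCR3LG1 and ASXL2, each highest in replicate 2. MYCBP2, another giant ubiquitin ligase gene, was at 21.3, 44.9 and 15.2 CPM, and BBX, a high-mobility group gene, at 8.71, 19.3 and 6.57 CPM. Without replicate 2 the mean of BBX was 7.64 in place of 11.5 CPM. The other 3 were all-or-none. AMIGO3 (chr3:49716834-49719695 on the minus strand) was at 26.1, 0 and 37.3 CPM. Its interval overlaps that of GMPPB (chr3:49716844-49723951 on the minus strand), a gene on the same strand at 94.8, 109 and 72.3 CPM. AMIGO3 was thus at 0 in replicate 2, where GMPPB was highest, and without replicate 3 its mean was 13.1 in place of 21.1 CPM. ENSG00000185990 was at 0.355, 40.4 and 48.3 CPM and ENSG00000198444 at 45.9, 0.0164 and 0 CPM. ENSG00000198444 was thus counted almost entirely in replicate 1, without which its mean was 0.00819 in place of 15.3 CPM, and ENSG00000185990 in replicates 2 and 3. Neither has a symbol in the tables used here.

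Several abundant genes varied little between libraries. PKM, the pyruvate kinase gene, was at 5035, 4955 and 5055 CPM (CV 1.05%), ENO1 at 6059.8, 6151 and 6012 CPM (CV 1.16%) and H19 as given above, while GAPDH had a CV of 3.23%. KRT8 and KRT18 had CVs of 5.22% and 5.66%, VIM 15.4% and FOLR1 19.4%. Of the 5 marker genes, VIM and FOLR1 thus varied more than the median gene of their level, and H19, KRT8 and KRT18 less. That median was 12.1% at 100 to 1000 CPM, the level of VIM, and 11.02% at 1000 CPM or more, the level of the others. FOLR1 lay just below the 90th percentile of its level, 20.7%.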

How the data were processed

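Polyadenylated RNA of the 3 shluc libraries was sequenced from dUTP-stranded TruSeq libraries, per the labels' protocols. The authors deposited unnormalized estimated counts, 1 row per Ensembl identifier. Tools listed in the submitters' processing notes are fastp, HISAT2 and StringTie, without versions, and the build is GRCh38. How reads were assigned to genes (annotation release, strand, reads mapping to several places) is not given in the sources used here, so overlapping genes and close copies are uncertain. The 6 columns of the other libraries were not used. The shluc values were identical in the series table and the library files.

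From these counts, CPM on library totals (19508444, 18923610 and 18563879) and TPM were computed in Python 3.11.15 (pandas 2.3.3). Lengths, GC content and positions came from GENCODE 29, matched by identifier. Of 57905 identifiers 52338 had a symbol and 5567 had none. Lengths were known for 52338, and TPM and its ranks cover only these. The identifiers without a symbol held 8.79% of counts, have no TPM and include the 2 most abundant. No groups were compared and no test was run. The common dispersion was estimated with edgeR 4.0.16 (R 4.3.3) on rounded counts after TMM scaling, and that step was tested on simulated data. Alternatives were TMM and DESeq2 1.42.0 scaling, other totals, lengths and thresholds, and each library left out in turn.

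The 34 symbol lists (746 of 764 symbols found) and 22 families matched by name pattern, the markers and the rule for named genes were chosen with earlier results of these data known. The rule took the 25 genes of highest CPM and of highest TPM, detected lineage genes, the 4 members of highest TPM of other lists, detected members (up to 8) and members at 0 of lists for other cell types and silent families, the 10 largest CVs at 10 CPM or more, the 5 largest ratios at 100 CPM or more, and KDM6A, EZH2 and H2AX. Some of the genes so chosen are left out of the text. KRT4, KRT5, KRT6A, KRT13, KRT14, KRT20, TP63, SOX2, ZNF750, DSG3, DSC3, IGF2 and GMPPB were named after their values were seen.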

Additional observations from a re-analysis of the deposited data

How the results depend on the processing

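The number of detected genes (11461) kept within 1.5 times under every alternative tried: 11272 with symbols only, 12372 at 0.5 CPM, 8228 at 5 CPM, 11484 after TMM scaling, and 11568 to 11672 with each replicate left out. The share of the 100 most abundant identifiers was 25.8% with symbols only, in place of 33.8%, by leaving out the 2 unnamed identifiers. It was 33.5 to 34.6% with each replicate left out. Of the 25 genes of highest CPM 14 were among the 25 of highest TPM. Of the latter 18 were also among the 25 by longest transcript. The median CV was 8.97 to 17.3% with each replicate left out, lowest without replicate 2, and the cause was not tested. The counts of detected lineage genes (72), of detected genes of other cell types (23) and of the 7 silent families (0) stayed within 1.5 times at 0.5 CPM and at a mean of 1 CPM. TMM and DESeq2 scaling moved the mean over the 3 libraries of none of 607 named or listed genes by more than its SD. The scaling factors lie on both sides of 1 and largely cancel in that mean. The outcome therefore does not check the values or order of single libraries. After TMM scaling the median CV was 14.8%, in place of 15.1%. Totals without the 2 unnamed identifiers moved 144 of 605 genes past their SD, at most 1.10-fold. Totals without these and the mitochondrial genes moved 233 of 596, at most 1.14-fold. Leaving out a replicate lowered 3 genes by more than 1.5 times: BBX, AMIGO3 and ENSG00000198444. A rise past 1.5 times could not occur, since the mean of 2 libraries is at most 1.5 times the mean of 3. Genes low or absent in a single library therefore could not be counted by this rule. No paired analysis was possible because only the control group is described and no groups are compared. At this depth, a gene with no count in a library may have a level of up to 0.154 to 0.162 CPM there. A level below that in a single library rests on fewer than 3 counts.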
